A study of Homo sapiens with 36 samples.

Results

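A375 is an established BRAF-mutant melanoma cell line. The comparison described here set A375 cells given 6-thio-dG for 3 days (2 libraries labelled THIO) against A375 cells given DMSO over the same time (2 libraries labelled CTRL), with RNA as the readout. These 4 of the series' 36 libraries were chosen by their labels, and all 11828 gene rows of the authors' deposited table were used. The table's header calls the reference arm RNA, which was read as the DMSO control because no other untreated A375 arm belongs to this experiment. Each row lists how far a gene changed on the log2 scale, with its p-value before and after adjustment. No value per library is in it, so replicate values, SDs and sequencing depth are unknown here, and nothing in the labels says that the 2 libraries of an arm came from separate cultures. The agent's dose is not given in the sources used here.

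For use beside it, the same table gives HCC827 cells (an EGFR-mutant lung adenocarcinoma line) with 6-thio-dG over their DMSO control, and A375 cells with 6-thio-dG plus PLX4720 (a BRAF kinase inhibitor) over PLX4720 alone, each with 2 libraries an arm and 3 days of treatment. The series asks what 6-thio-dG does in cells that survive targeted drugs. In every sentence below a gene's value is its log2 fold change, A375 6-thio-dG over control, followed after ± by the standard error (SE) that its listed p-value implies under a normal test. A gene is said to have risen or fallen where the adjusted p in the table is under 0.05. By that rule 65.0% of all genes were called, 31.3% as rises and 33.7% as falls, and the median log2 fold change over all genes was 0.01. The table does not give levels, so the line's melanocyte identity cannot be checked. Of 7 defining melanocyte markers the table lists 2, MITF and PMEL, against all 7 epithelial, 1 of 5 immune and 1 of 4 endothelial markers. These counts do not describe A375 alone, because the same rows serve the HCC827 comparisons and how they were chosen is not given. The A375 adjusted p-values fit an adjustment over 15844 genes, more than the 11828 rows listed. A marker missing from the rows is therefore not shown to be missing from A375.

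6-thio-dG is a guanine nucleoside analogue that telomerase and DNA polymerases can place into DNA. Damage of that kind is known to activate p53, which raises the CDK inhibitor p21, and the unphosphorylated RB family proteins that follow hold E2F and DREAM complex target genes down. DREAM and its MuvB core bind cell cycle genes late in the cycle through the CHR element, often beside CCAAT boxes of NF-Y, and earlier genes of DNA replication through E2F sites.

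The promoters of 4 late cell cycle genes are shown because their transcripts were among those that fell furthest and because their letters differ from those of the replication genes shown after them. Each is the run of 120 bases before the RefSeq start site, 5′ to 3′ on the gene's strand (GRCh38.p14), with TTTGAA (the CHR element) and CCAAT on either strand in capitals. PLK1, the polo-like kinase of mitotic entry, lies on the plus strand at chr16:23678769-23678888, CCNB2 (cyclin B2) on the plus strand at chr15:59105026-59105145, CDC20, the activator of the anaphase-promoting complex, on the plus strand at chr1:43358861-43358980, and MKI67, which encodes the proliferation antigen Ki-67, on the minus strand at chr10:128126424-128126543. In MKI67 the last CHR letters overlap a reversed CCAAT.
PLK1: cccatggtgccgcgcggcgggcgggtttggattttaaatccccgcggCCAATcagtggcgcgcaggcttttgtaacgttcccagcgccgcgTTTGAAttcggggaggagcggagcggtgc
CCNB2: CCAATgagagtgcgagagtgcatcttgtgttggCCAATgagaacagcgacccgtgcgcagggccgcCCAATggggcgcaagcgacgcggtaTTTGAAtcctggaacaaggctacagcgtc
CDC20: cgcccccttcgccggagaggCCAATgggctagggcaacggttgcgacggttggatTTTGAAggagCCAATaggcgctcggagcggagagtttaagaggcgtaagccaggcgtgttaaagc
MKI67: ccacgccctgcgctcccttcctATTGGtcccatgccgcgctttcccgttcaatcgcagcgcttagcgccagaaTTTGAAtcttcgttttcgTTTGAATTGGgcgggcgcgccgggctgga

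The same window of 4 origin licensing and fork genes is shown for contrast, with TTCCCGC, an E2F site, on either strand in capitals beside any CCAAT. CDT1, which loads the replicative helicase, lies on the plus strand at chr16:88803669-88803788, MCM3, a subunit of that helicase, on the minus strand at chr6:52284743-52284862, GINS2, a subunit of the helicase's GINS cofactor, on the minus strand at chr16:85688955-85689074, and ORC3, a subunit of the origin recognition complex, on the plus strand at chr6:87590015-87590134. None of these 4 windows holds TTTGAA.
CDT1: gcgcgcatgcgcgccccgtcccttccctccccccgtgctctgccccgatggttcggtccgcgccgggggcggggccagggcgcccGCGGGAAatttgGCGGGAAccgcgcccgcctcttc
MCM3: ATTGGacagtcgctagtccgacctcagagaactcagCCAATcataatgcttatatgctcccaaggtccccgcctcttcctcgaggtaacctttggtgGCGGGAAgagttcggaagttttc
GINS2: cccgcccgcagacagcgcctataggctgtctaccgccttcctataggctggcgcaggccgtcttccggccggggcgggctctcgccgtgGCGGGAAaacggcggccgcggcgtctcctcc
ORC3: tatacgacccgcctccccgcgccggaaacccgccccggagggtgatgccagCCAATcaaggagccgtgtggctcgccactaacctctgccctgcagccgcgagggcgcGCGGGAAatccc

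The fold changes of these 8 genes in the authors' deposited table were all below 0. PLK1 was at -5.97 (SE at most 0.16), CCNB2 at -4.12 ± 0.13, CDC20 at -4.46 ± 0.13 and MKI67 at -5.15 ± 0.16 in the authors' deposited table, which are falls of 62.6-, 17.4-, 22- and 35.4-fold. CDT1 was at -2.68 ± 0.17, MCM3 at -2.45 ± 0.11 and GINS2 at -3.93 ± 0.15 in the authors' deposited table. ORC3, which holds the same E2F letters, was at -0.08 ± 0.22 in the authors' deposited table with an adjusted p of 0.784 and was not called. With the trend of fold change against GC content removed, ORC3 was at -0.70 and was called as a fall.

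Over 6769 genes with a single 300-base promoter window (250 bases before to 50 after the start, both strands searched), TTTGAA was present in 8.95%. In the decile of genes with the lowest fold changes the share was 16.6%, and in the other deciles it ran between 5.72% and 11.7%. The 11.7% was that of the highest decile, and the decile next to it had 10.3%, so the genes that rose furthest also lay above the share of all windows. The windows of late genes held it far more often than those of replication genes: 8 of 12 genes of the mitotic kinase and anaphase-promoting complex list, 10 of 12 cytokinesis genes and 9 of 13 mitotic kinesins, against 0 of 12 licensing genes and 0 of 21 fork genes. E2F letters (TTCCCGC or TTGGCGC) were in 16 of 21 fork genes and 7 of 12 licensing genes, 0 of 12 mitotic kinase genes and 15.7% of all windows, and their share fell along the deciles of fold change to 13.0% in the highest decile, against 22.3% in the lowest. The AP-1 site TGANTCA ran the other way, with 6.66% in the highest decile, 1.68% in the lowest and 3.96% of all windows. ETS letters (CCGGAAG) were scarcest among the genes that fell furthest, 12.4% in the lowest decile against 22.9% of all windows. These shares are descriptions of the windows and were given no test, and how the letters vary with base composition was not tested.

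**Figure D1:**
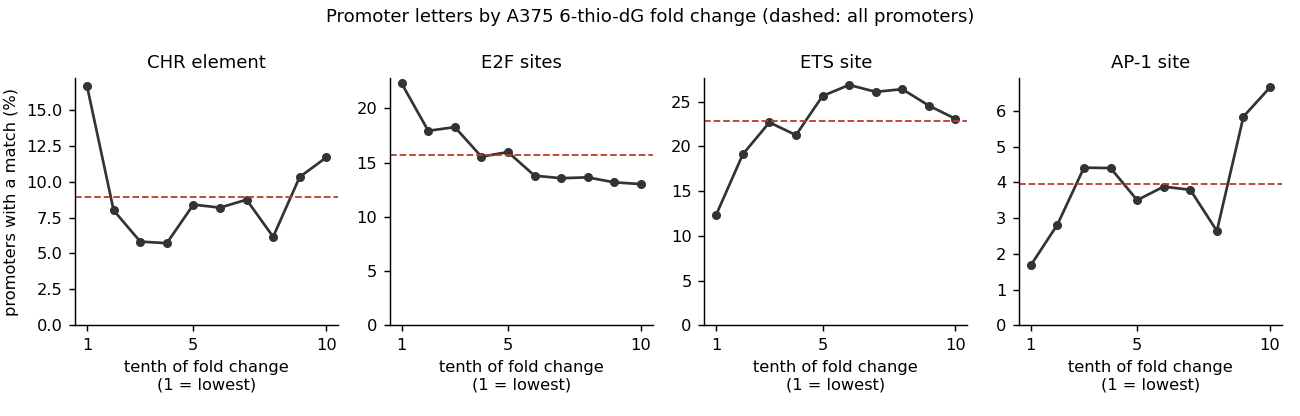
Share of promoter windows (y axis, %) that hold each motif, by decile of the A375 6-thio-dG over control log2 fold change (x axis, 1 the lowest); the dashed line is the share over all 6769 windows. The CHR element peaks at 16.6% in the lowest decile and is at 11.7% in the highest. E2F letters decline along the deciles, ETS letters dip to 12.4% in the lowest decile and AP-1 letters reach 6.66% in the highest.

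The changes were large in both directions. Of the called genes, 1873 rose and 1795 fell by at least 2-fold, 573 rose and 416 fell by at least 4-fold, and 214 rose and 149 fell by at least 8-fold. With genes of an SE above 0.5 left out, 77 rose and 128 fell by at least 8-fold. The 10 largest falls among genes with an SE of at most 0.5 were, in the authors' deposited table, PLK1, KIF20A at -5.56 (SE at most 0.14), FOXM1 at -5.16 (SE at most 0.13), MKI67, PALM3 at -5.03 ± 0.43, UBE2C at -5.03 ± 0.13, PRR11 at -4.84 ± 0.15, CDCA3 at -4.79 ± 0.16, GTSE1 at -4.72 ± 0.15 and UPK3B at -4.69 ± 0.40. FOXM1 is the transcription factor of the G2/M programme, KIF20A the kinesin of cytokinesis, UBE2C the ubiquitin-conjugating enzyme of the anaphase-promoting complex and GTSE1 a G2-phase p53 and microtubule regulator. UPK3B, a uroplakin of epithelial membranes, and PALM3 stand apart from the cell cycle genes in that list.

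The 10 largest rises under the same limit formed a mixed group. ZNF114, a zinc finger gene, was at 7.44 ± 0.23 in the authors' deposited table, PLA2G4C, a cytosolic phospholipase A2, at 6.003 ± 0.44 and the stress transcription factor ATF3 at 5.68 (SE at most 0.15). The cell adhesion molecule NECTIN4 was at 5.32 ± 0.26, the homeobox gene NKX1-2 at 4.94 ± 0.45, the actin bundler LCP1 at 4.91 ± 0.21, complement component C2 at 4.89 ± 0.50, the immune receptor SLAMF7 at 4.84 ± 0.15 and the stress factor DDIT3 at 4.65 ± 0.17 in the authors' deposited table. The remaining entry, ENSG00000249624 at 5.08 ± 0.48 in the authors' deposited table, is annotated as the readthrough gene IFNAR2-IL10RB, whose reads are shared with IFNAR2 and IL10RB, so its value is uncertain.

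Genes that handle the drug changed in both directions. Of 20 measured genes for uptake, salvage, sanitation and breakdown of guanine nucleosides, 4 rose and 9 fell, with a median of -0.28 on the log2 scale. The nucleoside transporter SLC29A1 fell, at -1.62 ± 0.18, and so did NUDT1, which clears oxidised purine nucleotides, at -1.90 ± 0.18 in the authors' deposited table. The guanylate-making enzymes GMPS at -0.95 ± 0.11 and IMPDH1 at -0.95 ± 0.16 and the guanylate kinase GUK1 at -0.88 ± 0.16 fell too in the authors' deposited table. TPMT, the methyltransferase that inactivates thiopurines, moved the other way at 0.75 ± 0.22 in the authors' deposited table, a rise that was not called once the trend of fold change with GC content was removed.

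Mismatch repair, the pathway that senses thioguanine in DNA, was split. EXO1, the exonuclease, was at -2.21 ± 0.15, the mismatch-recognition subunit MSH6 at -1.77 ± 0.12 and its counterpart for larger loops, MSH3, at -0.51 ± 0.22 in the authors' deposited table, and all of these fell. PMS2, a subunit of the main MutL complex, was at -0.21 ± 0.15 in the authors' deposited table and was not called. The subunits of the other MutL complexes rose, PMS1 at 1.08 ± 0.29 and MLH3 at 2.42 ± 0.72 in the authors' deposited table, of which the PMS1 rise was not called with the GC trend removed.

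SUCLG2, the GTP-forming beta subunit of the TCA cycle enzyme succinyl-CoA ligase and a gene that the series title names, fell, at -1.24 ± 0.18 in the authors' deposited table, with an adjusted p of 4.48e-11. The shared alpha subunit SUCLG1 was at -0.31 ± 0.13 and fell, a call lost with the GC trend removed, and the ATP-forming subunit SUCLA2 was at 0.35 ± 0.16 in the authors' deposited table and was not called. The SUCLG2 change in A375 given 6-thio-dG minus that in HCC827 was -0.11 ± 0.26, and minus that of the A375 combination it was -0.28 ± 0.24 (SE of the difference after ±). Neither difference was called by the z test on the implied errors, which does not show that the changes were alike. Telomerase genes fell in part. Of 11 measured members and assembly factors of the telomerase complex 5 fell and 0 rose, led by the pseudouridine synthase DKC1 at -1.22 ± 0.11 in the authors' deposited table. Of 9 shelterin and CST genes, TEN1 at -1.56 ± 0.30, ACD (TPP1) at -0.97 ± 0.20 and STN1 at -0.65 ± 0.15 fell in the authors' deposited table, while POT1, the single-strand binder, at 1.18 ± 0.18 and TINF2 at 0.57 ± 0.17 rose. The POT1 rise was not called with the GC trend removed.

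Most p53 targets rose. Of 15 measured arrest and stress targets 14 rose and 0 fell (median 1.80 on the log2 scale, against 31.3% rises over all genes), of 13 apoptosis targets 11 rose and 1 fell, and of 9 feedback genes 4 rose. CDKN1A, which encodes p21, was at 2.51 ± 0.16, the growth-arrest gene GADD45A at 3.45 ± 0.12, the cytokine GDF15 at 4.43 ± 0.16 and TP53INP1, a p53 cofactor, at 3.90 ± 0.33 in the authors' deposited table. MDM2, the ligase that degrades p53, was at 2.61 ± 0.18, the phosphatase PPM1D at 1.22 ± 0.15 and PHLDA3, an AKT inhibitor, at 1.27 ± 0.16 in the authors' deposited table. Among repair targets the translesion polymerase POLK at 3.72 ± 0.32, the ribonucleotide reductase subunit RRM2B at 2.37 ± 0.22 and the damage sensor XPC at 1.28 ± 0.13 rose in the authors' deposited table, while FANCC at -1.17 ± 0.16 fell. Death receptor genes rose together, FAS at 3.01 ± 0.21, the decoy receptor TNFRSF10C at 2.47 ± 0.74, TNFRSF10A at 0.55 ± 0.13 and TNFRSF10B at 0.27 ± 0.12 in the authors' deposited table. Among BCL2 family members the BH3-only genes BBC3 at 2.36 ± 0.17, PMAIP1 at 1.81 ± 0.16 and HRK at 3.66 ± 0.52 rose and the survival gene MCL1 at -1.05 ± 0.11 fell in the authors' deposited table; BAX, a classical p53 target, fell, at -0.30 ± 0.13 in the authors' deposited table, which was not called with the GC trend removed.

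**Figure D2:**
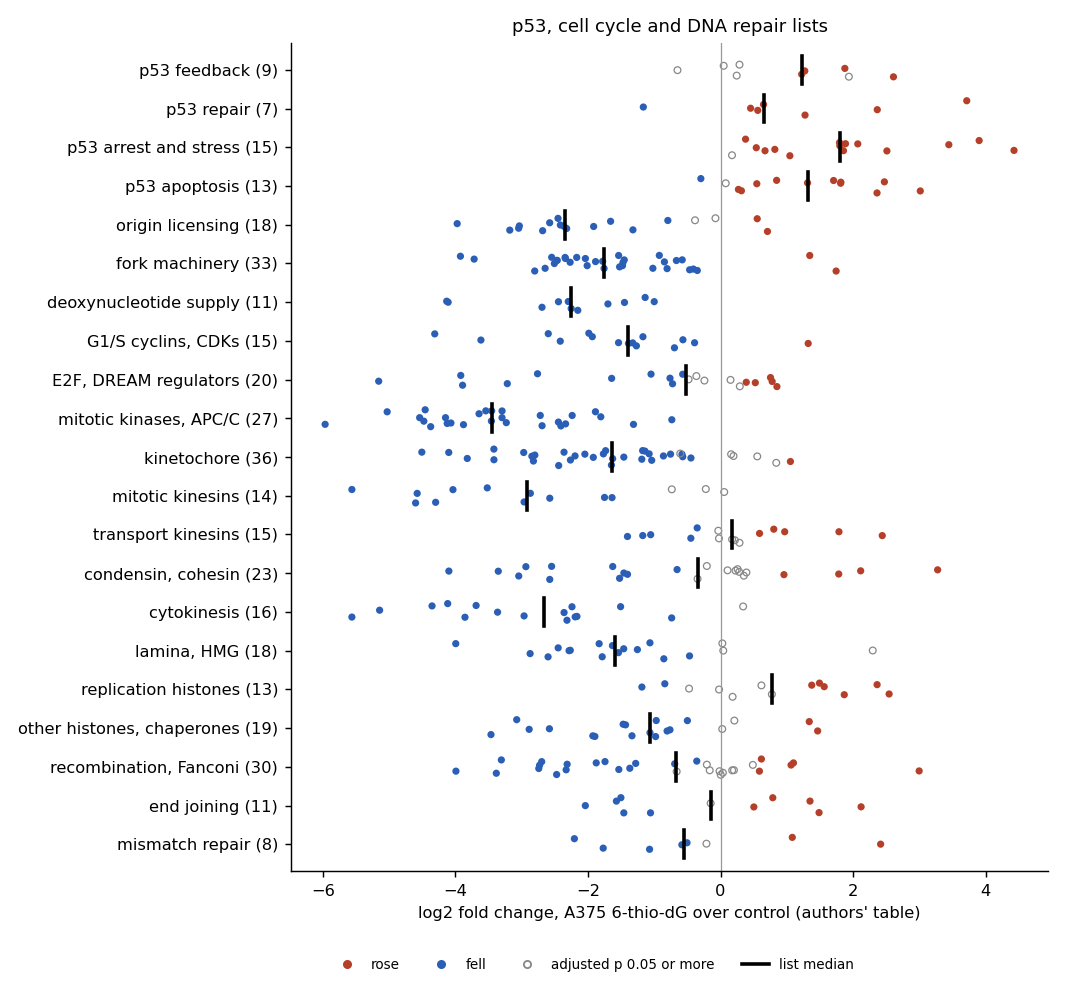
Each point is a gene of a list (rows, number measured in parentheses) at its log2 fold change in A375, 6-thio-dG over control (x axis, from the authors' table), red where it rose, blue where it fell, open where the adjusted p was 0.05 or more; the black bar is the list median. All 27 mitotic kinase and anaphase-promoting complex genes lie left of 0, the p53 arrest targets lie right of it, and the condensin and cohesin row spans both sides.

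Licensing, fork, deoxynucleotide supply and mitotic kinase genes fell in the majority, and the complexes inside the cell cycle lists did not move alike. In these bulk libraries a smaller share of dividing cells and less transcript per cell cannot be told apart. All 6 subunits of the MCM helicase fell, between -3.97 (MCM5) and -2.32 (MCM4) on the log2 scale in the authors' deposited table, beside 33.7% falls over all genes. The origin recognition complex was mixed: ORC1 at -3.04 ± 0.13 and ORC6 at -1.92 ± 0.16 fell in the authors' deposited table, ORC2 at -0.38 ± 0.19 and ORC3 were not called, and ORC4 at 0.71 ± 0.17 and ORC5 at 0.55 ± 0.15 rose. No ORC gene was a rise with the GC trend removed, and 4 of 6 were falls. All 4 GINS subunits fell, with a median of -2.22 on the log2 scale, and so did all 4 subunits of polymerase alpha and primase and all 4 of polymerase epsilon.

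A pair of fork subunits went against their complexes. POLD4, the small subunit of polymerase delta, rose, at 1.74 ± 0.17 while POLD1 at -2.65 ± 0.15, POLD2 at -1.47 ± 0.15 and POLD3 at -1.45 ± 0.15 fell in the authors' deposited table. RFC1, the large subunit of the clamp loader, rose, at 1.35 ± 0.20, while RFC2 at -1.78 ± 0.13, RFC3 at -1.89 ± 0.14, RFC4 at -0.92 ± 0.17 and RFC5 at -2.04 ± 0.14 fell in the authors' deposited table. Both rises were still called with the GC trend removed. All 11 genes of the deoxynucleotide supply list, which leaves out the p53-induced subunit RRM2B that rose, were falls, among them the ribonucleotide reductase subunits RRM2 at -4.13 (SE at most 0.11) and RRM1 at -2.45 ± 0.12, thymidylate synthase TYMS at -2.69 ± 0.12 and thymidine kinase TK1 at -4.11 ± 0.19 in the authors' deposited table.

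G1/S regulators fell in 14 of 15 cases. Cyclin A2 (CCNA2) was at -4.31 ± 0.13, the phosphatase CDC25A at -2.42 ± 0.13 and the kinase CDK2 at -1.54 ± 0.12 in the authors' deposited table, and the inhibitors CDKN2C at -2.60 ± 0.15 and CDKN1C at -3.62 ± 0.28 fell with them. CDK6, a cyclin D partner, was the sole rise in that list, at 1.32 ± 0.19 in the authors' deposited table. Among 20 E2F and DREAM regulators, the activators MYBL2 at -3.89 ± 0.14, E2F2 at -3.92 ± 0.20, E2F1 at -2.76 ± 0.17 and TFDP1 at -1.64 ± 0.11 fell in the authors' deposited table. The MuvB subunits LIN37 at 0.78 ± 0.21 and LIN54 at 0.85 ± 0.28 and the pocket protein RB1 at 0.75 ± 0.22 rose in the authors' deposited table, of which LIN54 and RB1 were not called as rises with the GC trend removed.

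The mitotic kinase, kinesin and cytokinesis lists had the lowest medians of the lists described, at -3.45, -2.92 and -2.66 on the log2 scale. All 27 mitotic kinase and anaphase-promoting complex genes fell, including CCNB1 (cyclin B1) at -4.48 (SE at most 0.12), survivin (BIRC5) at -4.54 ± 0.13 and the spindle factor TPX2 at -3.54 ± 0.11 in the authors' deposited table. Of 36 kinetochore genes 30 fell and 1 rose, with a median of -1.64. The centromere chaperone HJURP was at -4.51 ± 0.15, the centromeric histone CENPA at -3.82 ± 0.20 and the NDC80 complex genes at -3.42 ± 0.26 (NDC80), -2.44 ± 0.30 (NUF2), -3.42 ± 0.18 (SPC24) and -4.10 ± 0.25 (SPC25) in the authors' deposited table. Mitotic kinesins fell in 11 of 14 cases, with KIF2C at -4.04 ± 0.12, KIFC1 at -4.30 ± 0.14 and KIF4A at -4.58 ± 0.15 in the authors' deposited table. Transport kinesins, which carry cargo along microtubules, had 5 rises and 5 falls of 15, near the shares over all genes (31.3% and 33.7%). KIF21A at 2.44 ± 0.26 and KIF3A at 1.79 ± 0.26 rose and KIF1C at -1.40 ± 0.12 fell in the authors' deposited table. With the GC trend removed 3 of the 15 were falls.

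The ring complexes of chromosomes parted. Of 8 condensin subunits, which compact mitotic chromosomes, 6 fell and none rose: NCAPH was at -4.10 ± 0.14, NCAPD2 at -3.35 ± 0.11, NCAPG at -2.94 ± 0.21, NCAPG2 at -2.58 ± 0.15, NCAPD3 at -2.55 ± 0.12 and NCAPH2 at -1.63 ± 0.17 in the authors' deposited table. SMC2 at 0.39 ± 0.25 and SMC4 at -0.35 ± 0.28 were not called in the authors' deposited table. SMC4 was, with the GC trend removed, at -1.21 and was called as a fall. Among 10 cohesin genes the loader NIPBL at 2.11 ± 0.23, the ring subunits STAG2 at 1.78 ± 0.22 and SMC3 at 0.96 ± 0.23 rose and SMC1A at -1.52 ± 0.13 and RAD21 at -0.66 ± 0.16 fell in the authors' deposited table. With the GC trend removed NIPBL and STAG2 were still rises and SMC3 was not.

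Structural chromatin proteins fell while several histone genes rose. Of 18 lamina and HMG genes 15 fell and 0 rose, with the B-type lamins LMNB1 at -3.996 ± 0.14 and LMNB2 at -2.29 ± 0.11 and the chromatin proteins HMGB1 at -2.45 ± 0.12, HMGB2 at -2.87 ± 0.14 and HMGB3 at -2.60 ± 0.16 in the authors' deposited table. Of 19 replacement histones and chaperones 15 fell, including the assembly factors ASF1B at -3.46 ± 0.16, CHAF1A at -2.58 ± 0.12 and CHAF1B at -2.89 ± 0.16 and the variant H2AZ1 at -1.90 ± 0.12 in the authors' deposited table. Of 13 measured core and linker histone genes 6 rose and 2 fell: H1-2 at 1.38 ± 0.18, H4C14 at 1.87 ± 0.28, H2AC18 at 1.49 ± 0.27 and H2BC5 at 1.56 ± 0.33 were among the rises and H2BC12 at -1.19 ± 0.20 was among the falls in the authors' deposited table. The libraries were made by poly-T selection, and most replication-coupled histone transcripts carry no poly(A) tail, so their values rest on a minor RNA form.

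Falls outnumbered rises in homologous recombination and base excision repair, while end joining had 5 of each among 11 genes. Of 30 homologous recombination and Fanconi genes 16 fell and 5 rose (2 with the GC trend removed). FANCI at -3.38 ± 0.13, FANCD2 at -3.31 ± 0.18, and the recombination translocase RAD54L at -3.99 ± 0.20 fell in the authors' deposited table. RAD50, a subunit of the end-sensing MRN complex, went against them at 2.997 ± 0.31 in the authors' deposited table. In end joining, the DNA-PK subunits XRCC6 at -1.57 ± 0.11, XRCC5 at -1.06 ± 0.10 and PRKDC at -2.04 ± 0.15 fell, while the ligase LIG4 at 2.12 ± 0.32, its cofactor XRCC4 at 1.49 ± 0.31 and POLL, a gap-filling polymerase, at 0.79 ± 0.17 rose in the authors' deposited table. XRCC4 was no longer called with the GC trend removed. Base excision repair had 11 falls and 3 rises of 20 (5 rises with the GC trend removed), with the uracil glycosylase UNG at -2.001 ± 0.13 and PARP1 at -1.37 ± 0.11 down and polymerase beta (POLB) at 0.84 ± 0.16 up in the authors' deposited table.

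Members of the ATF4 stress programme moved both ways. DDIT3 (CHOP) and the phosphatase cofactor PPP1R15A at 1.87 ± 0.12 rose in the authors' deposited table. The serine and one-carbon enzymes PHGDH at -1.77 ± 0.13, PSAT1 at -1.28 ± 0.11 and SHMT2 at -1.41 ± 0.13 fell in the authors' deposited table, as did cystathionine beta-synthase (CBS) at -1.95 ± 0.18 and the mTOR inhibitor DDIT4 at -1.62 ± 0.13. In all, 11 of 27 measured ATF4 and amino acid genes rose and 13 fell. The endoplasmic reticulum list had 9 rises and 9 falls of 25, near the shares over all genes (31.3% and 33.7%). Its co-chaperones DNAJB9 at 2.40 ± 0.17 and DNAJC3 at 2.26 ± 0.19 and HERPUD1, a degradation factor, at 1.18 ± 0.12 rose in the authors' deposited table. The folding factors HYOU1 at -1.64 ± 0.11, PDIA6 at -1.08 ± 0.11 and CRELD2 at -1.70 ± 0.18 fell in the authors' deposited table. Cytosolic chaperones fell in 17 of 26 cases, among them HSP90AB1 at -1.74 ± 0.10 and all 8 subunits of the CCT chaperonin, whose values lay between -1.21 and -0.36 in the authors' deposited table. HSPB8, the small chaperone of selective autophagy, rose, at 2.58 ± 0.15 and DNAJB4 at 2.25 ± 0.28 in the authors' deposited table.

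Autophagy genes rose in 21 of 33 cases and fell in 2, with a median of 0.48 on the log2 scale. The cargo receptors rose together, TAX1BP1 at 2.49 ± 0.22, SQSTM1 (p62) at 2.16 ± 0.14, OPTN at 1.45 ± 0.14 and NBR1 at 0.91 ± 0.11 in the authors' deposited table. So did the ATG8 proteins that coat the autophagosome, GABARAPL1 at 2.22 ± 0.11, MAP1LC3B at 1.17 ± 0.11, GABARAPL2 at 0.48 ± 0.12 and GABARAP at 0.37 ± 0.14 in the authors' deposited table. All 8 measured genes of the catalytic V1 sector of the lysosomal proton pump rose, between 0.33 and 1.23 on the log2 scale in the authors' deposited table, while the 7 membrane V0 genes had 3 rises and 3 falls (1 with the GC trend removed). Of 45 lysosomal genes 18 rose and 11 fell, with the sialidase NEU1 at 1.63 ± 0.14 and the ceramidase ASAH1 at 1.08 ± 0.14 among the rises and the galactosidase GLB1 at -1.27 ± 0.13 among the falls in the authors' deposited table. The list's falls numbered 5 with the GC trend removed, beside 22 rises, and 5 at an adjusted p under 0.01.

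Iron storage and the haem-oxygenase arm of the NRF2 list rose. OSGIN1 was at 2.92 ± 0.19, HMOX1 at 2.02 ± 0.15 and the ferritin chains FTH1 at 1.59 ± 0.13 and FTL at 1.14 ± 0.15 in the authors' deposited table. NQO1, the standard NRF2 target, was at -0.72 ± 0.11 in the authors' deposited table, a fall, and the list as a whole had 14 rises and 6 falls of 23. With the GC trend removed the list had 10 rises and 8 falls, and its median was 0.14 against 0.47 as listed. Genes of the hypoxia list, which leaves out the hypoxia-responsive DDIT4 that fell (above), rose in 12 of 15 cases with no fall. The rises were led by NDRG1 at 1.82 ± 0.13, ANKRD37 at 2.26 ± 0.23, the demethylase KDM3A at 1.36 ± 0.15 and the mitophagy gene BNIP3 at 1.12 ± 0.12 in the authors' deposited table. The glycolytic enzymes, many of them hypoxia targets as well, fell in 17 of 23 cases, among them ENO1 at -1.76 ± 0.13, GPI at -1.49 ± 0.12 and PFKP at -1.39 ± 0.12 in the authors' deposited table, while the aldolase ALDOC rose, at 2.24 ± 0.15. 

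**Figure D3:**
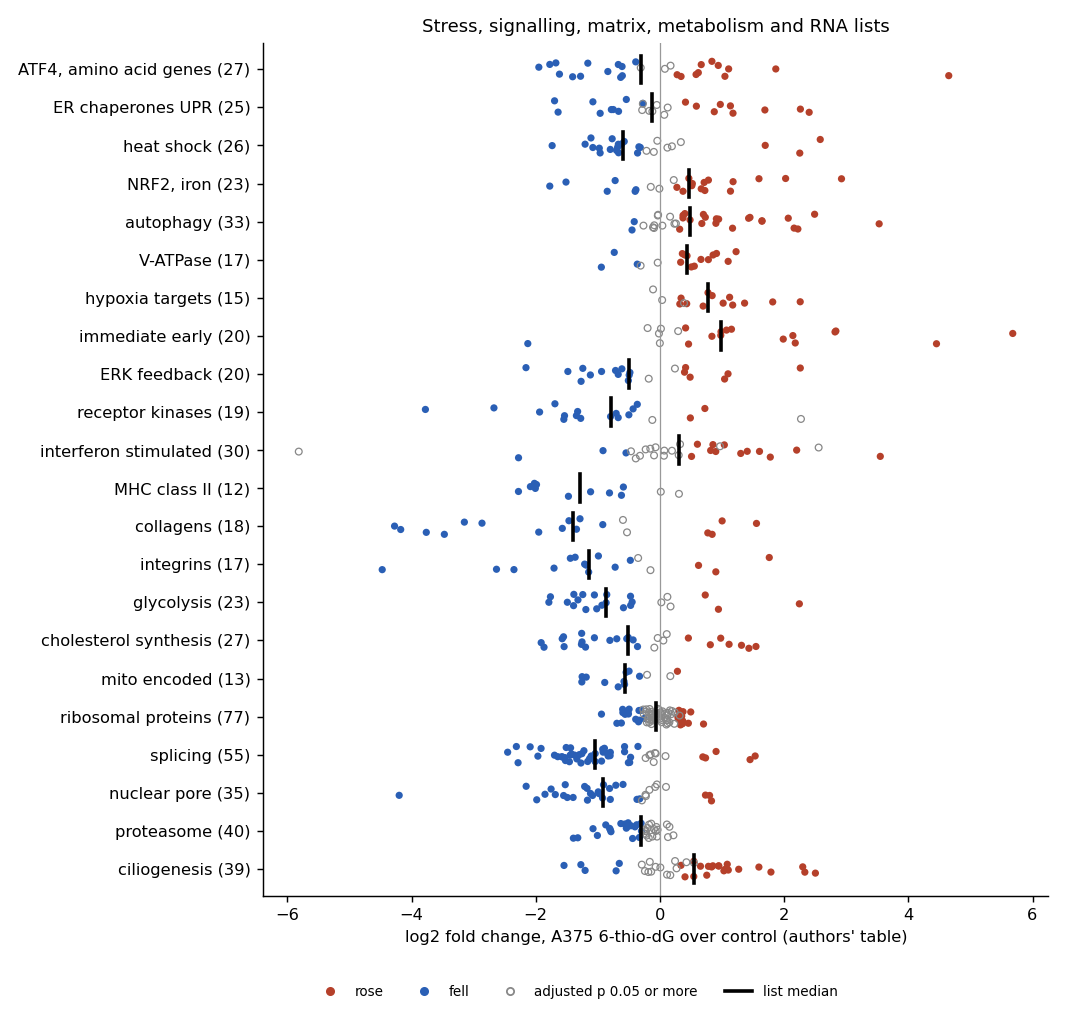
Genes of stress, signalling, matrix, metabolic and RNA lists (rows, number measured in parentheses) at their log2 fold change in A375, 6-thio-dG over control (x axis, from the authors' table); red rose, blue fell, open not called, black bar the list median. Autophagy, V-ATPase, hypoxia and immediate early medians lie right of 0, and splicing, nuclear pore, collagen and class II medians left of it.

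Immediate early genes rose while the ERK feedback genes mostly fell. Of 20 immediate early genes 14 rose and 1 fell, with a median of 0.98 on the log2 scale. The zinc finger factors EGR2 at 4.45 ± 0.79 and EGR1 at 2.82 ± 0.18 and the AP-1 subunits FOS at 2.83 ± 0.19, FOSB at 2.18 ± 0.18, JUN at 2.14 ± 0.11 and JUND at 1.15 ± 0.19 rose in the authors' deposited table. FOSL1, the AP-1 subunit most tied to sustained ERK activity, fell, at -2.13 ± 0.14 in the authors' deposited table. Of 20 ERK feedback and output genes 12 fell and 6 rose: ETV4 at -2.16 ± 0.14, ETV5 at -1.24 ± 0.12, SPRY4 at -1.48 ± 0.13, SPRY2 at -1.12 ± 0.12 and cyclin D1 (CCND1) at -1.27 ± 0.11 fell, and the phosphatase DUSP1 at 2.26 ± 0.15 rose in the authors' deposited table. Receptor tyrosine kinases fell in 15 of 19 cases, including ERBB3 at -2.67 ± 0.13, AXL at -1.94 ± 0.12, PTK7 at -1.69 ± 0.15 and EPHB4 at -1.55 ± 0.15 in the authors' deposited table. Among BMP targets the ID proteins, inhibitors of differentiation factors, rose in 3 of 4 cases with ID2 at 3.38 ± 0.31, ID3 at 1.21 ± 0.14 and ID1 at 1.02 ± 0.13 in the authors' deposited table, and TGFB1 at -1.56 ± 0.15 and SMAD3 at -1.31 ± 0.11 fell.

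Immune-facing genes had no single direction. Of 30 interferon-stimulated genes 12 rose and 3 fell, with SAMD9 at 3.55 ± 0.30, SAMD9L at 2.20 ± 0.40 and IFI6 at 0.90 ± 0.17 up and OAS3 at -2.28 ± 0.12 down in the authors' deposited table. Class II antigen presentation fell: the transactivator CIITA was at -2.01 ± 0.17, HLA-DRA at -2.28 ± 0.12, the invariant chain CD74 at -2.09 ± 0.13 and HLA-DPA1 at -1.47 ± 0.13 in the authors' deposited table, and 10 of 12 genes fell with no rise. Among checkpoint and NK cell ligands CD274 (PD-L1) at 1.51 ± 0.25, the costimulator TNFSF9 at 2.41 ± 0.18 and MICA at 0.80 ± 0.16 rose and NECTIN2 at -0.97 ± 0.16 and CD276 at -0.91 ± 0.16 fell in the authors' deposited table. Of 22 NF-kB regulators 9 rose and 6 fell, or 13 and 3 with the GC trend removed, around a median of 0.14. The feedback genes TRAF1 at 2.59 ± 0.19, BIRC3 at 3.84 ± 0.35 and TNFAIP3 at 1.40 ± 0.19 rose and BCL3 at -1.90 ± 0.23 fell in the authors' deposited table. The RNase H2 subunits, which remove ribonucleotides from DNA, were at -1.79 ± 0.15 (RNASEH2A), -1.08 ± 0.18 (RNASEH2B) and -0.23 ± 0.16 (RNASEH2C) in the authors' deposited table, the last not called.

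Matrix and adhesion genes fell and a few contractile targets rose. Of 18 collagen and collagen-processing genes 12 fell and 4 rose. The basement membrane chains COL4A1 at -2.87 ± 0.14, COL4A2 at -4.17 (SE at most 0.11) and COL18A1 at -4.27 ± 0.25 and the collagen VI chain COL6A1 at -3.47 ± 0.13 fell in the authors' deposited table. The lysyl oxidases LOXL1 at -4.63 ± 1.39, LOXL2 at -3.30 ± 0.13 and LOXL3 at -2.73 ± 0.12 and the glycoprotein tenascin C (TNC) at -3.69 ± 0.15 fell too in the authors' deposited table. Integrin and adhesion genes fell in 12 of 17 cases, with ITGB4 at -4.47 ± 0.14, ITGB3 at -2.63 ± 0.13 and ITGA3 at -2.35 ± 0.13, and ITGA2 went the other way at 1.76 ± 0.20 in the authors' deposited table. Of 32 actin, SRF and YAP genes 19 fell and 9 rose: the YAP targets ANKRD1 at 3.68 ± 0.18, CCN1 at 2.06 ± 0.11 and CCN2 at 1.49 ± 0.12 and smooth muscle actin (ACTA2) at 2.88 ± 0.17 rose, and the non-muscle motors MYH10 at -2.40 ± 0.15 and MYH9 at -1.78 ± 0.12 and the crosslinkers ACTN4 at -2.13 ± 0.11 and FLNA at -1.93 ± 0.13 fell in the authors' deposited table. Of 9 measured genes of a pigment cell list 3 rose and 4 fell, with a median of -0.39. The list holds genes not confined to pigment cells, such as CDK2AP1. The melanosome glycoprotein GPNMB at 1.35 ± 0.11 and MITF, the lineage factor, at 0.48 ± 0.19 rose, ERBB3 (above) and the CDK2-binding protein gene CDK2AP1 at -1.38 ± 0.12 were among the falls, and PMEL was at -0.39 ± 0.76 and not called in the authors' deposited table. The MITF rise was not called with the GC trend removed. CD68, a lysosomal glycoprotein used as a macrophage marker, was at 3.22 ± 0.13 in the authors' deposited table, and its part in the lysosomal result was not tested.

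Lipid and nucleotide synthesis genes fell in the majority. Lipid genes that fell included FASN at -2.28 ± 0.17, ACLY at -1.61 ± 0.11, LSS at -1.87 ± 0.16 and FDPS at -1.57 ± 0.12 in the authors' deposited table, and of 27 cholesterol genes 16 fell and 7 rose. De novo purine synthesis had 9 falls of 15, led by PFAS at -2.12 ± 0.14 in the authors' deposited table, and pyrimidine genes had 9 falls of 15. Against these, UPP1, the uridine phosphorylase that frees ribose from uridine, rose, at 1.86 ± 0.16 and the cytidine deaminase CDA at 2.03 ± 0.35 in the authors' deposited table. Of 13 mitochondrially encoded messages 10 fell and 1 rose, from MT-ND3 at -1.26 ± 0.14 and MT-ND2 at -1.25 ± 0.12 to MT-CO2 at 0.28 ± 0.11 in the authors' deposited table, while the 38 nuclear complex I genes had 9 rises and 11 falls around a median of -0.11.

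Splicing and nuclear transport genes fell in the majority, and cytosolic ribosomal protein genes lay around 0. Of 55 splicing genes 43 fell and 5 rose, with a median of -1.04 on the log2 scale. All 12 hnRNP genes fell, between -2.09 (HNRNPD) and -1.13 in the authors' deposited table, and 9 of 10 SR protein genes fell, led by SRSF2 at -2.31 ± 0.11 and SRSF1 at -2.28 ± 0.17. The exceptions included SRSF11 at 0.73 ± 0.17 and the CLK kinases that phosphorylate SR proteins, CLK1 at 0.90 ± 0.25, CLK3 at 0.69 ± 0.12 and CLK4 at 1.53 ± 0.33 in the authors' deposited table, while CLK2 at -0.23 ± 0.15 was not called. The SRSF11 rise was not called with the GC trend removed. Nuclear pore and transport genes fell in 25 of 35 cases, with the pore membrane protein NUP210 at -4.20 ± 0.17, the importin KPNA2 at -2.15 ± 0.10 and the GTPase RAN at -1.69 ± 0.11 in the authors' deposited table. Silencing factors fell in 25 of 33 cases, among them UHRF1 at -2.99 ± 0.14 and DNMT1 at -2.23 ± 0.12, which maintain DNA methylation, and SUV39H1 at -2.66 ± 0.15 in the authors' deposited table. The 77 cytosolic ribosomal protein genes had 14 rises and 16 falls around a median of -0.06 (23 rises with the GC trend removed), and 23 of 37 ribosome biogenesis genes fell. The initiation helicase EIF4A2 rose, at 2.19 ± 0.13 while its paralogue EIF4A1 was at -0.79 ± 0.11 in the authors' deposited table, a fall. Proteasome genes fell in 21 of 40 cases with no rise.

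Primary cilium genes rose in 21 of 39 cases and fell in 5, counts that moved with base composition. Once the GC trend was removed 10 rose and 7 fell. IFT20 at 1.59 ± 0.15, IFT74 at 2.33 ± 0.34, IFT80 at 2.50 ± 0.41 and BBS4 at 1.08 ± 0.17 rose and IFT122 at -1.54 ± 0.17, IFT140 at -1.21 ± 0.17 and IFT172 at -1.27 ± 0.17 fell in the authors' deposited table. IFT20, IFT74, IFT80 and IFT172 belong to IFT-B, which carries cargo outward along the cilium and had 8 rises (5 with the GC trend removed) and 1 fall, and IFT122 and IFT140 belong to the returning IFT-A complex.

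Under 6-thio-dG many genes changed differently in A375 and in HCC827, which share no libraries. In HCC827 29.2% of all genes were called. Of 11821 genes with an error in both lines, 55.1% differed by the z test on the implied errors with Benjamini-Hochberg adjustment, 26.2% higher and 28.9% lower in A375. The genes that differed numbered 6513, and 5589 once the GC trends, which ran in opposite order in the 2 lines, were removed. Of the genes that fell in A375, 20.6% rose in HCC827, against 14.8% rises over all genes there, and these were 47.0% of the HCC827 rises. The 8 most negative differences were those of TP73, a p53 relative, at -6.05 ± 0.52, CDCA3 at -5.89 ± 0.26, GINS2 at -5.84 ± 0.25, CDC20 at -5.65 ± 0.22, the PCNA clamp factor PCLAF at -5.65 ± 0.29, E2F2 at -5.52 ± 0.33, PALM3 at -5.52 ± 0.53 and cyclin F (CCNF) at -5.51 ± 0.26. GINS2, for example, was at -3.93 ± 0.15 in A375 and at 1.91 ± 0.21 in HCC827 in the authors' deposited table. Every MCM subunit was lower in A375, and the list median was -2.52 in A375 and 1.07 in HCC827. The largest positive differences beside the readthrough ENSG00000249624 at 9.79 ± 0.60 were PLA2G4C at 7.94 ± 0.60, NECTIN4 at 6.50 ± 0.39, DDIT3 at 6.24 ± 0.28, the thioredoxin inhibitor TXNIP at 5.92 ± 0.31, GDF15 at 5.64 ± 0.25, the polyamine acetyltransferase SAT1 at 5.45 ± 0.26 and the JNK phosphatase DUSP8 at 5.28 ± 0.46.

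List members differed between the lines as well. Of 39 ciliogenesis genes 24 were higher in A375 than in HCC827, of 13 core and linker histone genes 12 (median 0.77 in A375 and -2.51 in HCC827), and of 19 immediate early genes that could be tested 13. Of 55 splicing genes 41 were lower in A375. Over all tested genes 26.2% were higher and 28.9% lower. These list counts were taken with the GC trends left in, and those trends ran in opposite order in the 2 lines. The ciliogenesis genes had a median GC content of 44.3%, against 48.8% over all genes. How far base composition enters these counts was not tested. Class II genes fell in both lines, in 10 and 9 of 12 cases (14.4% falls over all genes in HCC827), with medians of -1.30 in A375 and -1.35 in HCC827.

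Against 6-thio-dG added to PLX4720 in the same line, 52.6% of 11805 genes differed, 24.1% higher and 28.5% lower with 6-thio-dG alone. These comparisons share no libraries. In the combination 60.5% of all genes were called, 31.2% as rises and 29.3% as falls. The rises shared by both comparisons were 48.9% of those with 6-thio-dG alone and 49.2% of those of the combination, and the shared falls were 50.1% and 57.5%. The most negative differences were the EGFR ligand AREG at -4.91 ± 0.46, ALPP at -4.35 ± 0.28, the keratin KRT80 at -4.07 ± 0.20, asparagine synthetase ASNS at -3.96 ± 0.19, MISP at -3.87 ± 0.31, CDC20 at -3.77 ± 0.28, SFN at -3.76 ± 0.48 and AURKA at -3.71 ± 0.26. ASNS was at -0.61 ± 0.11 with 6-thio-dG alone and at 3.35 ± 0.15 in the combination over PLX4720 in the authors' deposited table. The most positive were DEPP1 at 6.09 ± 0.45, EGR1 at 5.97 ± 0.24, TXNIP at 5.63 ± 0.29, PLA2G4C at 5.57 ± 0.54, C2 at 5.42 ± 0.59, the histone H2BC21 at 5.26 ± 0.50, GASK1B at 5.11 ± 0.50 and PDE5A at 5.04 ± 0.53. EGR1, the immediate early factor, was at 2.82 ± 0.18 with 6-thio-dG alone and at -3.16 ± 0.16 in the combination in the authors' deposited table.

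Several lists carried opposite medians in the 2 A375 comparisons. The ATF4 and amino acid list had a median of -0.31 with 6-thio-dG alone and 1.39 in the combination, and 23 of 27 genes were lower with the drug alone. Interferon-stimulated genes ran the other way, at medians of 0.31 and -1.75, with 25 of 30 higher with the drug alone. Splicing genes, at medians of -1.04 and 0.35, were lower with the drug alone in 49 of 55 cases. Ribosome biogenesis genes, at medians of -0.52 and 0.84, were lower in 32 of 37. Licensing genes were lower with the drug alone in 16 of 18 cases, but their medians, -2.34 and -0.04, were both below 0.

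**Figure D4:**
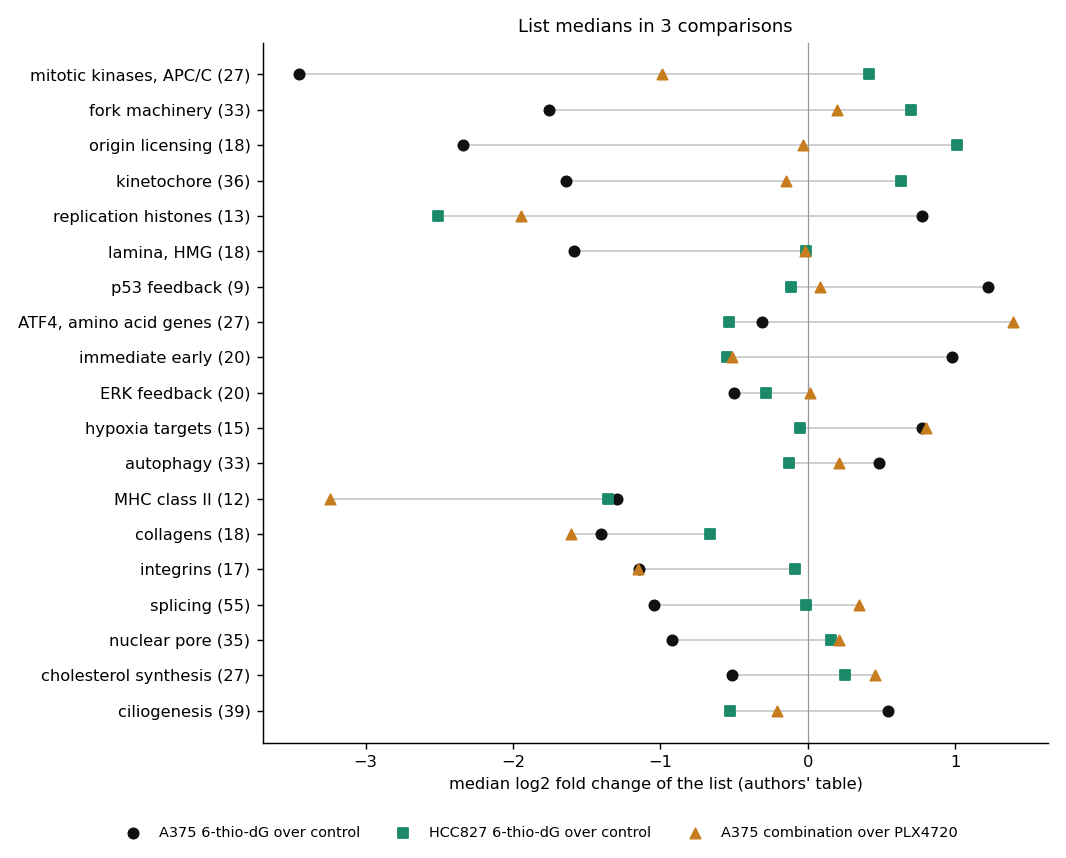
Median log2 fold change (x axis) of 19 gene lists (rows, number measured in parentheses) for A375 6-thio-dG over control (black circles), HCC827 6-thio-dG over control (green squares) and A375 combination over PLX4720 (orange triangles). The mitotic kinase list is at -3.45 in A375 with 6-thio-dG alone, 0.42 in HCC827 and -0.99 in the A375 combination, and the histone list is positive in the first of these and negative in the other comparisons.

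Fold change followed base composition over the whole table. Across genes Spearman's rho between the A375 6-thio-dG log2 fold change and the GC content of the longest coding transcript was -0.38 over 11800 genes, given as a description because genes are not independent replicates. In the decile of lowest GC the median was 0.88 and 67.4% of genes rose, and in the decile of highest GC the median was -0.50 and 50.8% fell. The same deciles had medians of -0.13 and 0.21 in HCC827, the opposite order. In the A375 combination over PLX4720 they had medians of 0.39 and -0.45, the same order as with 6-thio-dG alone. Genes within 5 Mb of a chromosome end fell more often: within 1 Mb the median was -0.32 and 44.3% of 461 genes fell, between 1 and 5 Mb the median was -0.39 and 50.3% of 1115 genes fell, and beyond 50 Mb the median was 0.17 and 27.6% of 2876 genes fell. Their GC content ran alongside, with medians of 59.5%, 58.4% and 44.7%. The same bins had medians of -0.29, -0.16 and 0.15 in the A375 combination and of 0.09, 0.09 and -0.05 in HCC827. With the GC trend removed the A375 6-thio-dG medians of these 3 bins were -0.05, -0.08 and 0.01. Whether GC content reflects the libraries or the cells was not tested.

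**Figure D5:**
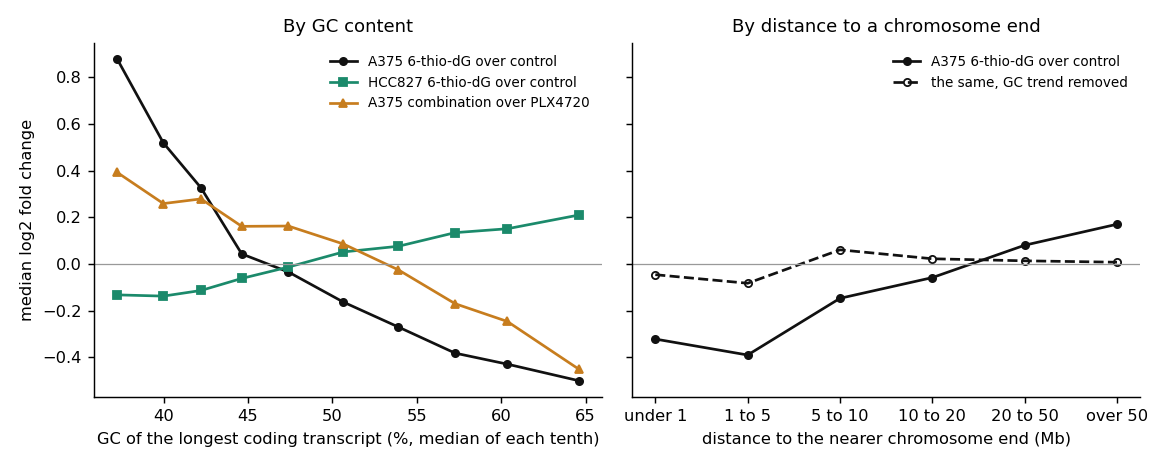
Left, the median log2 fold change (y axis) of each decile of genes by the GC content of the longest coding transcript (x axis, %) in the 3 comparisons. Right, the median for A375 6-thio-dG over control by distance to the nearer chromosome end (x axis, Mb), as listed (filled, solid) and with the GC trend removed (open, dashed); the medians lie between -0.39 (1 to 5 Mb) and 0.17 as listed and between -0.08 and 0.06 with the trend removed.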

How the data were processed

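RNA was measured by poly-T-selected sequencing, per the labels' protocols. FastQC, Trimmomatic, STAR and the hg38 build are named in the submitters' processing notes, and the differential expression tool is not given in the sources used here. Per the file headers, the deposited values are the authors' log2 fold changes, p-values and adjusted p-values. The A375 6-thio-dG adjusted p-values fit a Benjamini-Hochberg adjustment over 15844 genes (90.4% of ranks whole within a relative tolerance of 1e-06).

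An SE was taken as the log2 fold change divided by the two-sided normal quantile of its p-value. For the 7 genes whose p is listed as 0 it is an upper bound, and they enter no difference test. Differences between comparisons used a two-sided z test with Benjamini-Hochberg adjustment (Python 3.11.15, scipy 1.17.1, statsmodels 0.14.6), checked on simulated data. GC content came from GENCODE 29 for 11800 genes, and the GC trend was removed by lowess (fraction 0.3). Promoter windows are RefSeq's, of which 9581 genes matched by symbol and the 6769 with 1 window were searched. Depth and replicate spread are unknown here.

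Members and lists were chosen with earlier results of these data known. Named genes are the 3 succinyl-CoA ligase genes, the 10 largest rises and falls with an SE of at most 0.5 (readthrough names of 2 joined symbols left out), up to 6 smallest-p members of each list, all members of lists or complexes of at most 10, members that went against their list, and the 8 largest differences each way. CCNB2, CDT1, CDK2, EIF4A1, MYH9 and FLNA were named after their values were seen. A few genes that the rule takes are not reported here. Alternatives were stricter thresholds, a 2-fold minimum, a t distribution, median centring and removal of the GC trend.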

Additional observations from a re-analysis of the deposited data

Results flagged for a closer look

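The change under 6-thio-dG differed between A375 and HCC827 in 6513 of 11821 genes by the z test on the implied errors, with Benjamini-Hochberg adjustment over all of them. The 16 genes with the largest such differences under the error limit of 0.5 are flagged for it, with each value the A375 minus the HCC827 log2 fold change. TP73 differed by -6.05 ± 0.52, CDCA3 by -5.89 ± 0.26, GINS2 by -5.84 ± 0.25, CDC20 by -5.65 ± 0.22, PCLAF by -5.65 ± 0.29, E2F2 by -5.52 ± 0.33, PALM3 by -5.52 ± 0.53 and CCNF by -5.51 ± 0.26. ENSG00000249624 differed by 9.79 ± 0.60, PLA2G4C by 7.94 ± 0.60, NECTIN4 by 6.50 ± 0.39, DDIT3 by 6.24 ± 0.28, TXNIP by 5.92 ± 0.31, GDF15 by 5.64 ± 0.25, SAT1 by 5.45 ± 0.26 and DUSP8 by 5.28 ± 0.46.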

How the results depend on the processing

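No paired analysis was possible because the deposited table holds no value per library. For the same reason leaving out a library, another count tool and a batch check were not run. With a change of at least 2-fold required, 3668 genes were called in A375 given 6-thio-dG against control, 1873 as rises and 1795 as falls, against 7690, 3707 and 3983 without it. Under that minimum 2172 genes were lower in A375 than in HCC827, and 3454 differed from the A375 combination, 1798 higher and 1656 lower. Under the other alternatives run, the called count in A375 ran between 6681 and 7784, the differences from HCC827 between 5315 and 7559 and those from the combination between 4889 and 8917, the highest of these differences with p read as a t test. Of 162 list counts, 100 moved by over 1.5 times under the 2-fold minimum, 17 at an adjusted p under 0.01, 31 on removing the GC trend, and 34 on also removing those of exonic length and span. With the GC trend removed the kinetochore list had 0 rises, the lamina and HMG and proteasome lists 1 rise each and the hypoxia list 1 fall, and some gene values changed sign: BAX at 0.12, CLK2 at 0.12, KRT80 at 0.037, MISP at 0.24, ORC4 at -0.11, RB1 at -0.11, RNASEH2C at 0.17, SMC2 at -0.44 and SRSF11 at -0.017, none of them called. With the GC, exonic length and span trends removed together BAX was at 0.0058, CLK2 at 0.13, KRT80 at 0.089, MISP at 0.23, ORC4 at -0.047, RB1 at -0.084, RNASEH2C at 0.15 and SMC2 at -0.42. The cause of these changes was not tested. Depth, and so what it limits, is unknown here.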

Other observations

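Zinc finger genes named ZNF with a number were picked out after their values were seen. Of 384 such genes 212 rose and 43 fell in A375 given 6-thio-dG, with a median log2 fold change of 0.75, 0.06 in HCC827 given 6-thio-dG and 0.39 in the A375 combination over PLX4720. The 192 of them on chromosome 19 had a median of 1.17, or 0.82 with the GC trend removed, and 130 rose and 13 fell. The other 715 genes of chromosome 19 had a median of -0.33, or 0.08 with the GC trend removed. The 192 ZNF genes elsewhere had a median of 0.42. These genes include many near-identical copies, so reads shared between them make single values uncertain.

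Genes with a large implied error rose more often than they fell. Of 417 genes with an SE above 1, 93 were called as rises and 18 as falls. The 93 rises had fitted log2 fold changes from 2.58 to 24.1 with a median of 6.67, which are no bounds because the table does not give the counts behind them. In the A375 combination over PLX4720 the same 93 genes had a median log2 fold change of 1.21.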
